A study of Mus musculus with 6 samples.

Results

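Described here are 10 genes that sense, transmit or answer stress of the endoplasmic reticulum (ER), the compartment where membrane and secreted proteins fold. They are the sensors Ern1, Eif2ak3 and Atf6, the transcription factors Xbp1, Atf4 and Ddit3, and the effectors Herpud1, Sel1l, Edem1 and Tmbim6. They were chosen by name, and all 10 had a row among the 16095 genes of the expression table. All 10 also passed the filter of a mean of at least 10 normalized counts that left 14822 genes for testing. RNA was measured by sequencing in 6 libraries of sorted mouse kidney epithelial cells, 3 from control mice and 3 from mice here called Terf1_flox. Control mice were Trf1+/+ KFP+/t Cre+/t, and Terf1_flox mice were Trf1lox/lox KFP+/t Cre+/t. Trf1 is the protein name of Terf1, which encodes a telomere-binding protein of the shelterin complex. All mice of both groups thus carried the KFP reporter and a tamoxifen-inducible Cre recombinase (CreERT2) under the promoter of Ksp-cadherin (Cdh16), which is active in kidney tubule epithelium. Both groups received tamoxifen 3 times a week for 8 weeks, starting at 6 to 8 weeks of age in males and females. Kidneys were digested with enzymes, and cells positive for EpCAM and the reporter were collected by flow sorting. The comparison asks how loss of TRF1 from renal epithelium alters these stress pathways; the study's title links telomere dysfunction with kidney fibrosis.

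The unfolded protein response starts at sensors in the ER membrane. IRE1 (gene Ern1) is a kinase and ribonuclease that cuts Xbp1 mRNA, PERK (Eif2ak3) is a kinase that phosphorylates the translation factor eIF2, and ATF6 (Atf6) is a membrane-tethered transcription factor that is released by proteases in the Golgi. Phosphorylation of eIF2, which other kinases also carry out in the integrated stress response, lowers general translation and favours translation of Atf4, whose targets include Ddit3 (CHOP). Downstream genes raise folding capacity or send misfolded proteins to the proteasome, a route called ER-associated degradation. Tubule cells make large amounts of membrane transporters and, in the thick ascending limb, secreted uromodulin, all of which fold in the ER.

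Sequence defines one limit of these data at Xbp1. IRE1 removes a short intron from Xbp1 mRNA in the cytosol, which shifts the reading frame and yields the active factor, XBP1s. A 26-base stretch with the cut pattern CNGCNG at both ends lay inside the coding sequence of 3 of 3 protein-coding Xbp1 transcripts of GENCODE release M21. On build GRCm38 it lies on the plus strand at chr11:5524279-5524304, inside exon 4 of the longest transcript. It is printed below 5′ to 3′ with 12 bases on either side, and the capitals mark the stretch that IRE1 removes.
Xbp1: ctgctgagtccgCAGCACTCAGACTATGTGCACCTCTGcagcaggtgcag
Normalized counts were deposited per gene, so the spliced and unspliced forms were added together and the activity of IRE1 was not measured.

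Promoter sequence was compared next. Windows of 250 bases before to 50 after the start site (RefSeq, build GRCm38.p6) were matched for 8 members; those of Atf6 and Tmbim6 were not matched. Both strands were searched for the ER stress response elements ERSE (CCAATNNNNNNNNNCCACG) and ERSE-II (ATTGGNCCACG), which bind ATF6 and XBP1 with NF-Y, for the C/EBP-ATF element (TGATGNAA) bound by ATF4 and CHOP, and for the XBP1 and ATF6 element UPRE (TGACGTGG). Herpud1 held ERSE-II from 52 to 42 bases before its start site, and the C/EBP-ATF element on the opposite strand from 112 to 105 bases before it. ERSE-II was found in 0.0365% and the C/EBP-ATF element in 3.97% of 32851 promoter windows. ERSE (0.119% of windows) and UPRE (0.676%) were found in 0 of the 8 members. CCAAT boxes (CCAAT), which bind NF-Y, were found in 6 of the 8 members and in 37.4% of all windows, and Sel1l held 3 of them on the opposite strand within 130 bases of its start site. One of the CCAAT boxes of Herpud1 is part of its ERSE-II. Both stretches are shown because Herpud1 and Sel1l, which act in the same degradation complex, had fold changes of opposite sign without overlap between the groups. The first is at chr8:94386299-94386398 on the plus strand and the second at chr12:91849168-91849287 on the minus strand; capitals mark the C/EBP-ATF element and ERSE-II of Herpud1 and the opposite-strand CCAAT boxes of Sel1l.
Herpud1: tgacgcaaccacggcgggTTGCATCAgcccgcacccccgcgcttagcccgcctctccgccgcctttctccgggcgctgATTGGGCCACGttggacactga
Sel1l: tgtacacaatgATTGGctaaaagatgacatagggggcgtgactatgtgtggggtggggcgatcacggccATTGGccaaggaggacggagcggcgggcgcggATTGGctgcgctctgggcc
A match of letters is a description of these windows, and binding was not measured.

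The libraries held 13582140 to 17680986 reads in control and 13870931 to 15375471 in Terf1_flox mice. Terf1 was read at 486 to 664 normalized counts in control and at 24.6 to 62.0 in Terf1_flox libraries, so the groups did not overlap. Cdh16 was at 4540 to 7152 and 4063 to 4767, and the sort marker Epcam at 4416 to 5087 and 1434 to 2977. Xist was read in all 6 libraries (1380 to 2872 normalized counts) and the Y-linked Ddx3y at 123 to 951 in 5 of them, with 3 reads in Terf1_flox replicate 3. How many mice went into each library is not stated in the labels, so n is a number of libraries and p-values measure only the spread between them. Marker sums of 4 lists did not overlap between the groups. The 8 epithelial markers summed to 24259 to 26789 in control and 16267 to 22524 in Terf1_flox libraries, the 8 of the thick ascending limb to 235007 to 284466 and 195315 to 209621, and the 10 of the proximal tubule that had a row to 2015 to 4069 and 4125 to 14588, the last value in Terf1_flox replicate 3. Without the most abundant marker of each list, an alternative chosen after seeing the data, the groups overlapped in these 3: 14072 to 19177 and 9024 to 14811 without Cldn8, 109461 to 146369 and 131116 to 144812 without Umod, and 1549 to 2110 and 1178 to 5151 without Kap. Within the thick ascending limb list 5 of 8 markers were above 0 (median log2 fold change 0.11). Slc12a1 was the 1 marker higher without overlap, at 33842 to 41249 in control and 46946 to 54370 in Terf1_flox libraries. Umod, Kcnj1 (11595 to 22199 and 7301 to 10809) and Ptger3 (2334 to 2879 and 663 to 1451) were the 3 lower without overlap. Over all genes the shares without overlap were 10.8% lower and 10.3% higher. In bulk samples fewer cells of a type and less RNA per cell cannot be told apart, and the part of these shifts in the results below was not tested. Sums of dissociation and immediate early genes (16 of 16 with a row) were 4185 to 4764 and 4112 to 4383. The remaining list is that of B lymphocytes and plasma cells, and plasma cells also express Xbp1 strongly; of 12 B lymphocyte and plasma cell markers 4 had a row, and they summed to 36.2 to 45.0 in control and 60.9 to 359 in Terf1_flox libraries (4.74 to 17.2 and 24.6 to 136 without Sdc1), while Ighm, Igkc, Jchain and Mzb1 had no row. Sums for the distal convoluted tubule, principal and intercalated cells, macrophages and monocytes (5 of 14 with a row), T and NK lymphocytes (2 of 12), fibroblasts and pericytes (1 of 11), podocytes (2 of 7) and erythroid cells (5 of 8) overlapped; the 1 endothelial marker of 10 with a row, Ehd3, was below 60 normalized counts.

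Across the members, 8 of 10 had a log2 fold change below 0 and 2 above, with a median of −0.53, beside 52.8% below 0 and a median of −0.08 over all genes tested. Of the 10 members 0 were called by limma at a Benjamini-Hochberg adjusted p below 0.05, where 0.0% of all genes were called. Terf1 itself, with a log2 fold change of −3.99 ± 0.61 (standard error), was not called either (adjusted p = 0.0814 in limma and 0.0963 in edgeR). A gene that was not called is thus not shown to be unchanged. At an unadjusted limma p below 0.05 there were 3 members, Tmbim6 and Herpud1 lower and Sel1l higher in Terf1_flox libraries, against 14.1% of all genes; edgeR gave 0 calls after adjustment and 3 members at an unadjusted p below 0.05. The same 3 were the members whose groups did not overlap, a state found for 21.1% of all genes (10.8% lower and 10.3% higher in Terf1_flox libraries). The other 7 members overlapped between the groups.

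**Figure D1:**
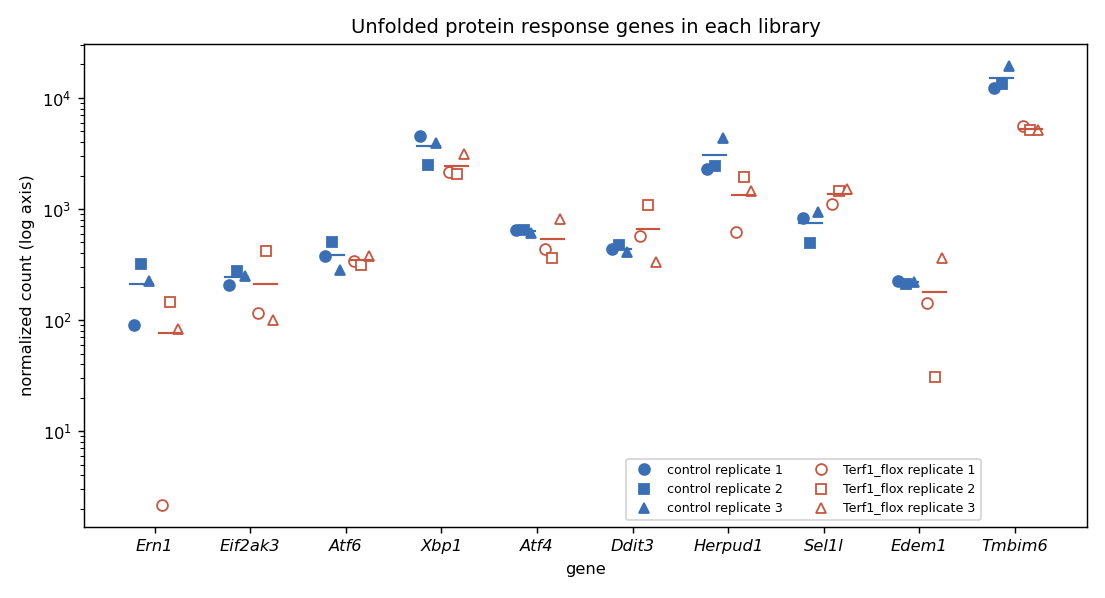
Normalized counts (log axis) of the 10 genes in each of the 3 control (filled blue) and 3 Terf1_flox (open red) libraries; marker shape gives the replicate number and the line the group mean. Tmbim6, Herpud1 and Sel1l do not overlap between groups, and Ern1 is near 2 normalized counts in Terf1_flox replicate 1.

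The member with the most reads, also per length, was Tmbim6, which encodes BAX inhibitor 1, a membrane protein of the ER that limits cell death and calcium release and restrains IRE1. Tmbim6 was at 12325, 13436 and 19393 normalized counts in control and at 5592, 5183 and 5100 in Terf1_flox libraries. All 3 Terf1_flox libraries lay below all 3 control libraries, and they were close to each other. The means were 15052 ± 3800 and 5291 ± 264 (SD, n = 3 each), and the log2 fold change was −1.48 ± 0.20 (standard error), 2.79-fold lower. The limma adjusted p was 0.0805 and the edgeR adjusted p 0.0947, both short of the threshold. Tmbim6 passed in DESeq2 (adjusted p = 2.48e-07, where 5.21% of genes were called), in limma with equal library totals (0.0316, 0.304% of genes called) and in limma with the filter raised to a mean of 50 (0.0233, 1.23% of genes called). With a library left out in turn the log2 fold change ran from −1.61 to −1.28, and the limma adjusted p from 0.128 to 0.332. The limma adjusted p was 0.209 with a replicate block and 0.147 with Xist as a covariate. After correction for transcript GC content and length the log2 fold change was −1.30.

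Other members of the TMBIM family, which share the membrane fold of BAX inhibitor 1, served for comparison. Of 5 with enough reads 0 were called and 0 had an unadjusted limma p below 0.05, beside 14.1% of all genes. Their median log2 fold change was 0.25, or −0.11 without Terf1_flox replicate 3 and −0.04 with the filter raised to a mean of 50. Of the 5, 1 was higher and 0 were lower without overlap, beside 10.3% and 10.8% of all genes. The higher gene is not among those named below. Tmbim4, a Golgi member of the family, had means of 5880 ± 1076 in control and 6983 ± 1167 in Terf1_flox libraries (0.25 ± 0.22 on the log2 scale). Ghitm, the mitochondrial member, averaged 11340 ± 5882 and 7133 ± 532 (−0.53 ± 0.35). Grina (−0.33 ± 0.44) and Tmbim1 (0.37 ± 0.82) overlapped between the groups, and both changed sign in some alternatives. The ratio of Tmbim6 to Tmbim4 reads, which no scaling of libraries can alter, was 1.78, 2.81 and 3.28 in the control libraries, and it was 0.974, 0.724 and 0.633 with Terf1_flox. Thus Tmbim6 had more reads than Tmbim4 in each control library and fewer in each Terf1_flox library. Reads were not divided by transcript length, so they do not rank the levels of these genes within a library. This ratio was chosen after its values were seen and is given with no test.

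Herpud1 and Sel1l act side by side in ER-associated degradation. HERP (Herpud1) is a ubiquitin-like-domain protein of the ER membrane that helps assemble the HRD1 ligase complex, and SEL1L is the adaptor that stabilises HRD1. Herpud1 was at 2271, 2454 and 4375 normalized counts in control and at 616, 1940 and 1440 in Terf1_flox libraries. Each Terf1_flox library was below each control library, and the gap was small, between Terf1_flox replicate 2 and control replicate 1. The means were 3033 ± 1165 and 1332 ± 669 (SD, n = 3 each), and the log2 fold change was −1.27 ± 0.45, with an adjusted p of 0.265 in limma and 0.0702 in DESeq2. Without Terf1_flox replicate 1 the log2 fold change was −0.79.

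Sel1l was at 829, 490 and 931 normalized counts in control and at 1102, 1456 and 1516 in Terf1_flox libraries. All 3 Terf1_flox libraries were above the control libraries. The means were 750.02 ± 231 and 1358 ± 224 (SD, n = 3 each), and the log2 fold change was 0.89 ± 0.34, with an adjusted p of 0.292 in limma and 0.143 in DESeq2. With libraries left out in turn it ran from 0.61 to 1.08, and in the other alternatives from 0.64 to 1.02. The ratio of Sel1l to Herpud1 reads was 0.365, 0.200 and 0.213 in the control libraries, and it was 1.79, 0.751 and 1.05 with Terf1_flox. Sel1l thus had fewer reads than Herpud1 in every control library and more in 2 of 3 Terf1_flox libraries. These reads were not divided by length, and the longest transcript has 6300 bases for Sel1l and 1952 for Herpud1. Per kilobase of it, Sel1l was below Herpud1 in both groups. The values were 77.8 to 148 and 1164 to 2241 normalized counts in control, and 175 to 241 and 315 to 994 in Terf1_flox libraries. The ratio was chosen after its values were seen and has no test.

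**Figure D2:**
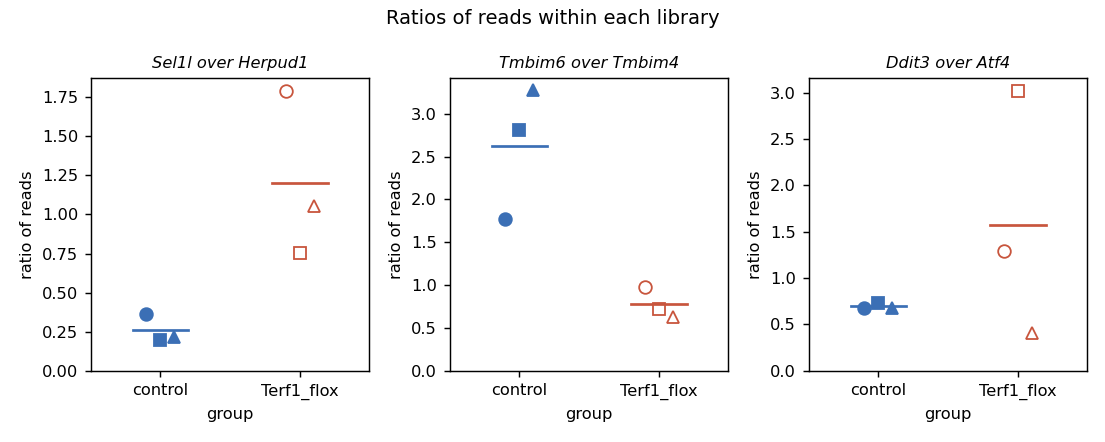
Ratios of recovered reads within each library for Sel1l over Herpud1, Tmbim6 over Tmbim4 and Ddit3 over Atf4 in control (filled blue) and Terf1_flox (open red) libraries; lines are group means and each axis starts at 0. The first 2 ratios do not overlap between groups, while Ddit3 over Atf4 runs from 0.407 to 3.02 in Terf1_flox libraries and from 0.676 to 0.734 in control.

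Edem1 encodes a mannosidase-like lectin that hands misfolded glycoproteins to the degradation complex. Edem1 was at 225, 211 and 219 normalized counts in control and at 144, 30.8 and 365 in Terf1_flox libraries. The control libraries were nearly equal, and the Terf1_flox libraries lay on both sides of them. The log2 fold change of −0.88 ± 0.86 (limma adjusted p = 0.694) rested on Terf1_flox replicate 2, without which it was 0.07; without Terf1_flox replicate 3 it was −1.69.

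Of the 23 other genes of ER-associated degradation with enough reads, 0 were called by limma, and 4 were lower and 1 higher at an unadjusted p below 0.05 (8.43% and 5.7% of all genes). Their median log2 fold change was −0.22, and −0.57 without Terf1_flox replicate 2, −0.56 without control replicate 2 and −0.03 without control replicate 3. It was −0.10 with equal upper quartiles, where the median of all genes was 0.04. With equal library totals it was −0.39 (all genes −0.24), and after the GC content and length correction −0.39 (all genes −0.10). Vcp, the ATPase that pulls substrates out of the membrane, averaged 1423 ± 271 in control and 554 ± 121 in Terf1_flox libraries (−1.36 ± 0.32; limma adjusted p = 0.139, DESeq2 adjusted p = 0.00555). Aup1, a lipid droplet and ER protein that recruits the ubiquitin-conjugating enzyme UBE2G2, was at −1.26 ± 0.43, and at −0.66 after the GC content and length correction. The ubiquitin-conjugating enzymes Ube2j2 (−1.02 ± 0.43) and Ube2g2 (−3.23 ± 1.39) were also below 0 without overlap. Ube2g2 had a single read in Terf1_flox replicate 2, and its log2 fold change was closer to 0, at −2.17, in edgeR.

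Among the sensors, 0 of 3 passed in limma, edgeR or DESeq2, and all 3 overlapped between the groups. Ern1 was at 90.6, 319 and 225 normalized counts in control and at 2.18, 146 and 83.0 in Terf1_flox libraries. The lowest value came from 2 reads in Terf1_flox replicate 1, and the groups overlapped. The log2 fold change was −2.47 ± 1.39 (limma adjusted p = 0.468); without Terf1_flox replicate 1 it was −0.76, without Terf1_flox replicate 2 it was −3.52, and edgeR, which works on reads, gave −1.45.

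Eif2ak3 was at 207, 275 and 251 normalized counts in control and at 116, 423 and 101 in Terf1_flox libraries. Terf1_flox replicate 2 was the highest of all 6 libraries, while the other Terf1_flox libraries were the lowest. Eif2ak3 exons overlap the opposite-strand Gm43292, which was at 0.0 to 130 normalized counts. The log2 fold change was −0.50 ± 0.64 (limma adjusted p = 0.774), and it was −1.15 without Terf1_flox replicate 2, −0.23 without Terf1_flox replicate 1 and −0.13 without Terf1_flox replicate 3. Atf6 was at 376, 500.4 and 281 in control and at 342, 314 and 380 in Terf1_flox libraries. The Terf1_flox values lay within the range of the control values. At −0.13 ± 0.41 its log2 fold change (limma adjusted p = 0.921) was small beside its standard error; it was 0.08 without control replicate 2, −0.33 without control replicate 3 and −0.50 after the GC content and length correction.

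Partners of IRE1 and ATF6 included the gene with the lowest adjusted p among the named pathway genes after Pdia3. Rtcb encodes the RNA ligase that rejoins Xbp1 mRNA after IRE1 has cut it, and that also joins cut tRNAs. Rtcb was at 1313, 788 and 1514 normalized counts in control and at 299, 192 and 113 in Terf1_flox libraries. Every Terf1_flox library was below every control library. The means were 1205 ± 375 and 201 ± 93.3 (SD, n = 3 each), and the log2 fold change was −2.63 ± 0.48 (limma adjusted p = 0.0926, edgeR 0.108, DESeq2 1.42e-05). With the filter raised to a mean of 50 the limma adjusted p was 0.0321, and over 19 alternatives the log2 fold change ran from −2.97 to −2.27. Of the 16 tested partners and processing genes, 0 were called by limma. Rtcb and the pro-death gene Bax were the 2 with an unadjusted p below 0.05, beside 14.1% of all genes. Bax (−3.83 ± 1.37) had 2 reads in Terf1_flox replicate 1. Traf2, the adaptor that links IRE1 to kinase signalling (−1.19 ± 0.68), and Creb3, a relative of ATF6 (−0.41 ± 0.33), overlapped between the groups. The median of the list was −0.24; it was −0.06 without Terf1_flox replicate 3, −0.13 without Terf1_flox replicate 2 and −0.09 after the GC content and length correction.

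Of the transcription factors, Xbp1 had the most reads, also per length. Xbp1 was at 4530, 2491 and 3945 normalized counts in control and at 2173, 2068 and 3107 in Terf1_flox libraries. Terf1_flox replicate 3 was above control replicate 2, so the groups overlapped. The means were 3655 ± 1050 and 2449 ± 572 (SD, n = 3 each), and the log2 fold change was −0.56 ± 0.29 (limma adjusted p = 0.434). It stayed below 0 in all 19 alternatives, between −0.81 and −0.38. As said above, these counts cover both forms of the mRNA.

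Atf4 was at 643, 648 and 602 normalized counts in control and at 441, 360 and 819 in Terf1_flox libraries. In Terf1_flox libraries, replicates 1 and 2 were below all control libraries and replicate 3 was above them. The log2 fold change was −0.32 ± 0.40 (limma adjusted p = 0.772); it was 0.09 after the GC content and length correction, −0.07 without Terf1_flox replicate 2 and −0.66 without Terf1_flox replicate 3. ATF4 is regulated mainly at translation, which RNA counts do not show.

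Ddit3 was at 435, 476 and 407 normalized counts in control and at 571, 1089 and 333 in Terf1_flox libraries. Terf1_flox replicate 2 was the highest and replicate 3 the lowest of all 6. The log2 fold change was 0.43 ± 0.47 (limma adjusted p = 0.727), and without Terf1_flox replicate 2 it was −0.01, while without Terf1_flox replicate 3 it was 0.85. Exons of Ddit3 overlap those of Mars1 and Gm4189 on the opposite strand in GENCODE M21. The labels do not say whether counting used strand, so reads of these genes may not be told apart; Mars1 was at 434, 41.9 and 144 in control libraries and at 52.2, 136 and 50.6 with Terf1_flox. Atf4 and Ddit3 pointed in opposite directions in the same library: in Terf1_flox replicate 2 Atf4 had its lowest and Ddit3 its highest value, and in replicate 3 Atf4 had its highest and Ddit3 its lowest value.

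**Figure D3:**
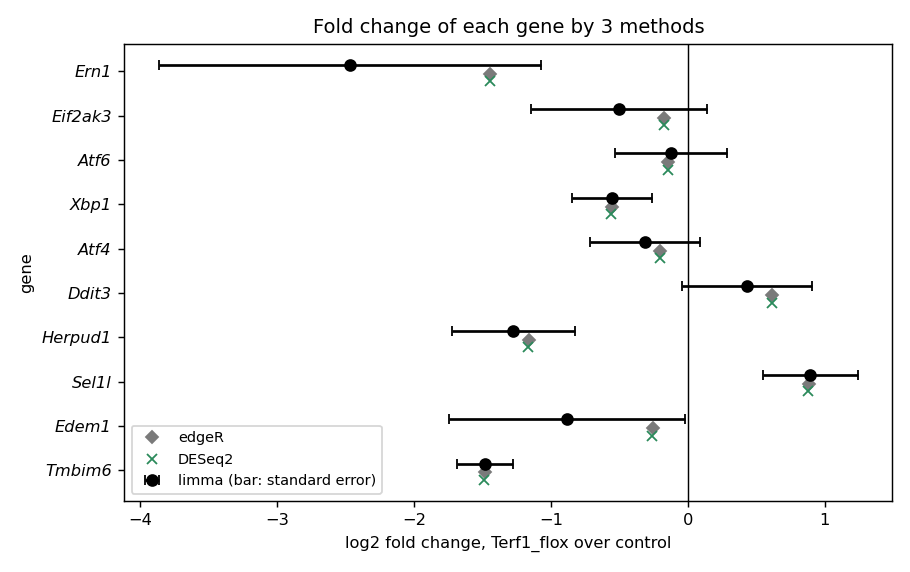
Log2 fold change of Terf1_flox over control for the 10 genes from limma (black, bar is the standard error), edgeR (grey) and DESeq2 (green). Tmbim6, Herpud1 and Sel1l lie apart from 0 by more than 2 standard errors, while Ern1 and Edem1 move toward 0 in the methods that work on reads.

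Genes downstream of ATF4 and CHOP were read widely apart. Of 24 with enough reads 0 were called by limma, and 3 were lower and 1 higher at an unadjusted p below 0.05, beside 8.43% and 5.7% of all genes. The median log2 fold change of −0.58 moved to −0.27 after the GC content and length correction; it was −0.86, −0.23 and −0.31 without Terf1_flox replicates 1, 2 and 3. Slc3a2, the heavy chain of amino acid transporters, averaged 1685 ± 63.1 in control and 545 ± 211 in Terf1_flox libraries (−1.69 ± 0.34; limma adjusted p = 0.108, DESeq2 0.00081). The tRNA synthetase genes Sars (−1.96 ± 0.71) and Wars (−1.36 ± 0.50) were also below 0 without overlap. Nupr1, a small stress-induced chromatin protein, was at 1342, 108 and 209 in control and at 912, 935 and 15971 in Terf1_flox libraries. The groups overlapped (log2 fold change 2.93 ± 1.22, limma adjusted p = 0.33), and DESeq2 gave no adjusted p. The highest value was in Terf1_flox replicate 3, the library that also had the highest proximal tubule marker sum. A link between these values was not tested. Trib3, Chac1 and Fgf21 had no row.

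Genes of eIF2, its other kinases, its exchange factor and its phosphatases gave 0 of 14 called by limma and 0 at an unadjusted p below 0.05. Over all genes 14.1% had such an unadjusted p. Of the 14 genes 11 were below 0 (median −0.70), beside 52.8% of all genes. Eif2s2, the beta subunit of eIF2, averaged 3012 ± 214 in control and 4182 ± 1114 in Terf1_flox libraries (0.44 ± 0.24), without overlap. The exchange factor subunits Eif2b5 (−1.53 ± 0.79) and Eif2b2 (−3.04 ± 1.60) and the phosphatase catalytic subunit Ppp1ca (−0.80 ± 0.41) were on the other side of 0. Eif2s2 was the 1 gene of the list higher and Eif2b5 the 1 lower without overlap, beside 10.3% and 10.8% of all genes. Eif2b2 had a single read in Terf1_flox replicate 1, and Ppp1ca was at −0.29 after the GC content and length correction.

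ER chaperones and folding enzymes, which ATF6 and XBP1 regulate, had a median log2 fold change of −0.86, the lowest of the 6 other pathway lists with all libraries; without Terf1_flox replicate 1 it was −0.68, and that of the ATF4 and CHOP targets was −0.86. Of 22 genes 0 were called by limma, and 12 were lower and 1 higher at an unadjusted p below 0.05; DESeq2 called 6 lower and 0 higher. Over all genes the shares were 8.43% lower and 5.7% higher at an unadjusted limma p below 0.05, and 3.0% lower in DESeq2. The list median stayed between −1.05 and −0.62 in all 19 alternatives. The disulfide isomerase Pdia3 averaged 8178 ± 1849 and 3295 ± 144 (−1.29 ± 0.21; limma adjusted p = 0.0814). P4hb, another disulfide isomerase, averaged 3503 ± 766 and 1482 ± 222 (−1.23 ± 0.26), or −0.73 with GC content and length corrected. Hspa5, the main ER chaperone BiP that also holds the sensors inactive, averaged 8228 ± 2715 and 3827 ± 1046 (−1.08 ± 0.32), and its exchange factor Sil1 542 ± 83.1 and 115 ± 86.5 (−2.62 ± 0.74).

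**Figure D4:**
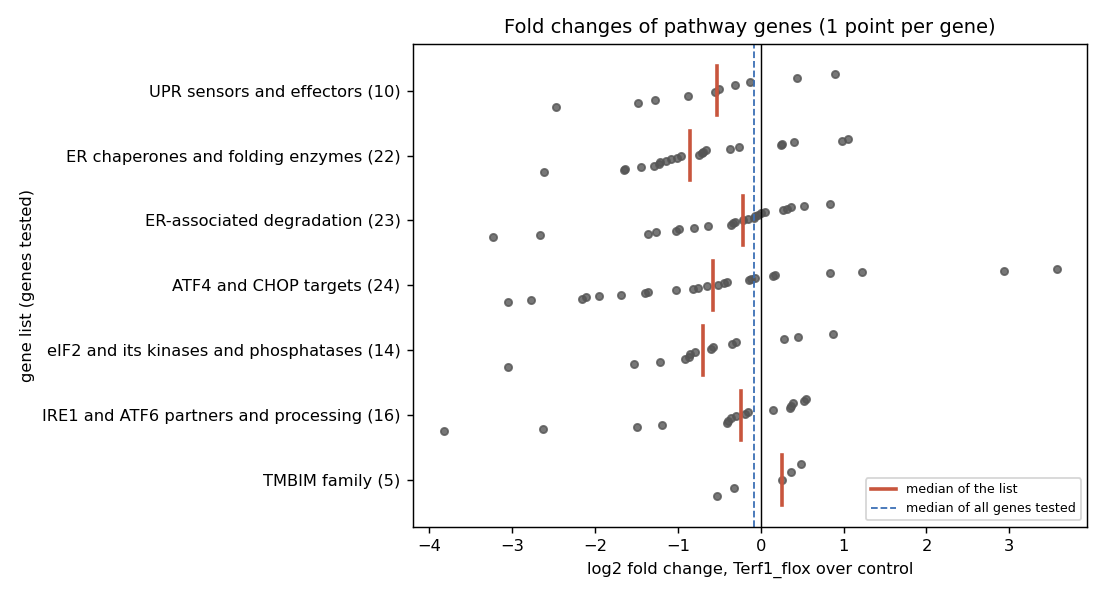
Log2 fold change of every tested gene in the 10 UPR sensors and effectors and in 6 other lists of the pathway; red bars are list medians and the dashed line is the median of all genes tested (−0.08). The ER chaperone list has its median at −0.86 and the TMBIM family, without Tmbim6, at 0.25.

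Spread between libraries differed among the members. Edem1 (SD of log2 values 0.05 in control and 1.78 in Terf1_flox libraries), Atf4 (0.06 and 0.62), Ddit3 (0.11 and 0.85) and Eif2ak3 (0.21 and 1.13) were nearly level in control and uneven in Terf1_flox libraries. Tmbim6 was the other way round (0.35 and 0.07), as were Sel1l (0.49 and 0.25) and Atf6 (0.41 and 0.14). In all, 6 of 10 members had the larger SD in Terf1_flox libraries, beside 56.0% of all genes tested, so the count alone does not set the members apart.

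**Figure D5:**
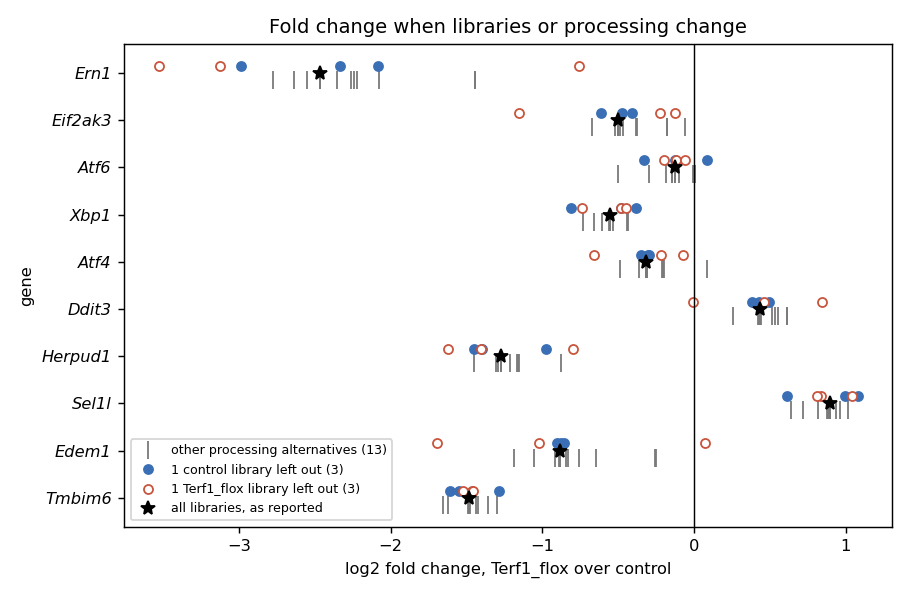
Log2 fold change of each gene with all libraries (star), with 1 control (blue) or 1 Terf1_flox (open red) library left out, and under the 13 other processing alternatives (grey ticks). Tmbim6, Herpud1, Sel1l and Xbp1 stay on one side of 0, as do Ern1 and Eif2ak3 over wide ranges, while Atf6, Atf4, Ddit3 and Edem1 cross 0.

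Levels of different genes can be compared only per length. With the longest protein-coding transcript of GENCODE M21 as the length, the control level was 6138 ± 1550 normalized counts per kilobase for Tmbim6, 1717 ± 493 for Xbp1 and 1554 ± 597 for Herpud1 (SD, n = 3). At this length Xbp1 and Herpud1 were closer to each other than their spread. With the median transcript length in place of the longest, their control levels were further apart, at 3326 and 1620. Ddit3 (493 ± 38.6) and Atf4 (366 ± 14.6) followed, then Sel1l (119 ± 36.7). The sensors Eif2ak3 (54.1 ± 7.63), Atf6 (53.2 ± 15.2) and Ern1 (30.5 ± 16.5) and Edem1 (37.5 ± 1.25) were the lowest. The control values of Eif2ak3 and Atf6 overlapped, as did those of Edem1 and Ern1. In Terf1_flox libraries the order was alike at the top, with Tmbim6 at 2158 ± 108 and Xbp1 at 1150 ± 269, followed by Ddit3 at 746 ± 434 and Herpud1 at 682 ± 343. With the median transcript length in place of the longest, Ern1 moved from the 10th to the 6th place, so its place depends on the isoform.

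Genes with the most similar pattern over the 6 libraries were searched among 10762 genes by the root-mean-square distance of centred log2 values. Itgb5 (distance 0.0772) and Spop (0.0903) were nearest to Tmbim6, whose own spread was 0.768. Cmpk1 (0.105) and Snrnp27 (0.118) were nearest to Sel1l. No member was among the 2 nearest genes of another member. With 10762 genes searched, this does not show that the members vary apart from each other.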

How the data were processed

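The values the authors deposited are a signal, reads per gene divided by 1 size factor for each library and not by gene length; per the submitters' processing notes DESeq2 and build GRCm39 were used. No aligner, counting tool or annotation is named in the labels. All values (100.0%) equalled a whole number of reads (tolerance 0.01 of a read), so reads were recovered by division. Terf1_flox was compared with control by limma 3.58.1 (R 4.3.3, mean-variance trend) on log2(normalized count + 1), with Benjamini-Hochberg adjustment over 14822 genes. For low genes this scale gave log2 fold changes larger or smaller than edgeR did. Ern1 was at −2.47 against −1.45 in edgeR, and Tmbim1 at 0.37 against 0.79. SD is between libraries. Alternatives were other pseudocounts, filters, scalings, weights, covariates, a replicate block, leaving out each library, edgeR 4.0.16 and DESeq2 1.42.0 on recovered reads, and correction of log2 values for GENCODE M21 transcript GC content and length (14489 genes). Standard errors are those of the limma fit and also rest on the spread between libraries. Tests were tried on simulated reads. The members and lists were chosen with earlier results of these data known. From each pathway list the 4 genes with the smallest limma p were named, with all members, Terf1, Cdh16 and Epcam; other names were chosen after values were seen. Figures were drawn with matplotlib 3.10.9.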

Additional observations from a re-analysis of the deposited data

How the results depend on the processing

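Of all genes, limma called 0 with the deposited scaling (2095 at an unadjusted p below 0.05; edgeR 0 and 1993), 132 when the filter was raised to a mean of 50, 45 with equal library totals, 8 with quantile normalization and 772 in DESeq2; leaving out 1 library gave 0 in each case. Of the 10 members, 0 were called, and Tmbim6 alone (1) was called with that filter, with equal library totals and in DESeq2; leave-one-out fits gave 0. Atf6 was at 0.0073 with quantile normalization and ran from −0.333 to 0.0821 with libraries left out, Atf4 was at 0.0859 after the GC content and length correction, Ddit3 ran from −0.0072 to 0.846 and Edem1 from −1.69 to 0.071 with libraries left out; the cause was not tested. The other 6 members kept their sign in all 19 alternatives. Equal totals moved the median of all genes to −0.24 and equal upper quartiles to 0.04. The replicate block called 0 genes and 0 members (1884 genes at an unadjusted p below 0.05). Same-numbered libraries deviated with correlations of −0.0486, 0.000129 and −0.00694, and differently numbered ones with −0.028 to 0.0388. Taken over all genes tested, these values show no pairing by number but cannot exclude one. At 13582140 to 17680986 reads per library, Ern1 and Edem1 had as few as 2 and 30 reads in a Terf1_flox library. The other Terf1_flox libraries held 142 and 82 reads of Ern1, and 132 and 361 of Edem1. The cause of these low values was not tested.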
